A study of Mus musculus with 24 samples.

Results

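APC colon tumours were set against APC normal colon mucosa, where APC is the genotype that the labels give both tissues, across all mouse miRNA probes of a NanoString nCounter panel. The members are the 5 APC tumour and 6 APC normal libraries of the 24 libraries in the series, chosen by the names of their count columns, and 566 of the 603 probes on the panel count mouse miRNAs. The other 13 libraries, 6 tumours and 7 normal samples of the AOM-DSS model, entered the same fit. They thus shared in the filter, the scaling and the estimate of spread behind the APC tests. Their own changes are described here only for the difference between models. The design text names the APC;CpC mouse, a model in which a Cre transgene under control of the Cdx2 promoter is known to delete Apc in colon epithelium. Tumours and normal mucosa carry the same genotype label, so the comparison is between tissues of that genotype and holds no wild-type mucosa. The tissue was fixed in formalin and embedded in paraffin per the labels' extraction protocol but frozen per the design text, and the labels do not settle which. The sources used here give no strain, age, sex or number of tumours per sample. The design text calls the normal tissue matched, but no label ties a tumour to a normal sample or says that the samples came from separate mice, so p-values measure only the spread between these samples.

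A miRNA is cut from a hairpin transcript and guides silencing proteins to messages that pair with its seed, bases 2 to 8 of the mature strand. Loss of Apc, which keeps beta-catenin low, turns on Wnt target genes and starts most colorectal adenomas. Normal colon mucosa is known to hold miR-192 and miR-194 in its epithelium and miR-143 and miR-145 in its smooth muscle and stroma, and miR-135b, named in the series title, is known to target the Apc message.

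The following mature sequences carry the changes described below. They are taken from RefSeq with build GRCm38.p6, written 5′ to 3′ with the seed in capitals. Members of a family share the seed, so their probes must be told apart by the lower-case bases. The first set holds rises that the text describes by library or by group mean, with miR-135a and the miR-183 cluster. Other rises with a sequence, such as miR-149 and miR-1983 near background, are not printed.
miR-31: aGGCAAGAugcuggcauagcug
miR-135a: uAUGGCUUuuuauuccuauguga
miR-205: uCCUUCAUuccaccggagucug
miR-183: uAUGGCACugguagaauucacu
miR-96: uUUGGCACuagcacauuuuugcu
miR-182: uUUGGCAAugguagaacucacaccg
miR-99a: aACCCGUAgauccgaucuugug
miR-223: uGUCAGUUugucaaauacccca
The second set holds the falls, and beside miR-10a and miR-10b stands miR-100, whose sequence is close to theirs and which has the seed of miR-99a.
miR-10a: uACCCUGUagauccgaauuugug
miR-10b: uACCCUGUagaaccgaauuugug
miR-100: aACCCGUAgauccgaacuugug
miR-194: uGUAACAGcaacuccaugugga
miR-192: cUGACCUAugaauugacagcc
miR-139-5p: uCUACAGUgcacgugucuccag
miR-137: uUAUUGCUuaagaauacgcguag
The third set shows the miR-29 family, in which miR-29a did not pass the test beside members with the same seed, and the miR-30 members that fell.
miR-29c: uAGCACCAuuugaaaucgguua
miR-29b: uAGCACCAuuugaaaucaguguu
miR-29a: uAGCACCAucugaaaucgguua
miR-30a: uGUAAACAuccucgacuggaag
miR-30e: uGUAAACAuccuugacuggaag
miR-30c: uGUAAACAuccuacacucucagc
By position in GRCm38.p6, mature miR-31 lies at chr4:88910614-88910635 on the minus strand, within the span of the long non-coding RNA gene Gm49890. miR-135b is encoded on chromosome 1, and its hairpin lies within the spans of the protein-coding gene Lemd1 and the long non-coding RNA gene Gm29695. miR-205 lies at chr1:193507503-193507524 on the minus strand, in no other annotated gene. The hairpins of miR-10a and miR-10b lie inside Hoxb3 and inside the spans of Hoxd3 and Hoxd4. The mature strand of miR-139-5p lies at chr7:101475382-101475403 within the protein-coding gene Pde2a, and that of miR-192 at chr19:6264857-6264877 in no other annotated gene. Exon and intron positions were not examined. Mature sequences were assigned to 286 of the mouse miRNA probes and a hairpin gene to 445.

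Depth and background differed somewhat between the groups. Mouse miRNA counts summed to 134680 to 262394 per tumour library and 208744 to 297309 per normal library. The background level of each library was its mean plus 2 SD over 33 probes for miRNAs of 2 mouse herpesviruses, a cytomegalovirus and a gammaherpesvirus. That background lay at 178 to 251 CPM in tumours and 140.1 to 214 CPM in normal mucosa, where CPM is the usual count-per-library-size unit, scaled by TMM to the mouse miRNA total. Viral counts per 1000 mouse miRNA counts were 4.33 ± 1.18 in tumours and 2.44 ± 0.558 in normal mucosa (SD, n = 5 and 6; exact two-sided permutation test, adjusted p = 0.00866 over 8 library measures), and 125 to 188 miRNAs exceeded background in a tumour against 164 to 216 in a normal library. Tumour 1 was the shallowest library, had the highest background in CPM and correlated with the other tumours at a mean r of 0.939 over 211 miRNAs above background, against 0.972 to 0.977 for tumours 2 to 5. The results that rest on it are given below with and without it. All 11 libraries ran on 1 cartridge.

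A few miRNAs took much of each normal library and less of each tumour library. The miR-720 probe, which detects what is today read as a piece of a tRNA, took 16.1, 9.50, 8.36, 10.97 and 21.4% of the mouse miRNA counts in tumours 1 to 5, against 24.01 to 26.01% in normal mucosa. Its share was below every normal library in every tumour, and tumour 5 came nearest to the normal range. miR-143 and miR-145 together took 1.603, 2.93, 2.67, 2.59 and 2.05% in tumours 1 to 5, against 15.6, 15.2 and 15.3% in normal libraries 1 to 3 and 21.9, 22.3 and 23.3% in normal libraries 4 to 6. The 10 highest miRNAs by mean level over the 11 libraries took 43.4% ± 4.35 in tumours and 61.2% ± 2.87 in normal mucosa. They include miR-720, miR-143 and miR-145, so this share is not separate from those above, and its remaining members were not tested apart. For these 3 shares the exact two-sided permutation test gave p = 0.00216, the smallest this design allows (adjusted p = 0.00577). The top 10 by mean level shared 7 members between the groups. miR-125b-5p, let-7b and miR-30b stood in the tumours' list, and miR-145, miR-143 and miR-194 in that of normal mucosa. Scaled by the library total alone, 353 miRNAs were higher and 25 lower in tumours, with a median log2 change of 0.69 over all miRNAs. TMM scaling, with a median of 0.04, was therefore used for every level below. That median includes miRNAs at background, of which the panel held 292, so it does not show that measured miRNAs are balanced. With the fit and TMM scaling redone on the 191 miRNAs above background in at least 5 of 11 libraries, 62 were higher and 49 lower, with a median of 0.10. Of these, 38 and 48 were among the calls given below, so the change comes with a new scaling and filter.

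**Figure D1:**
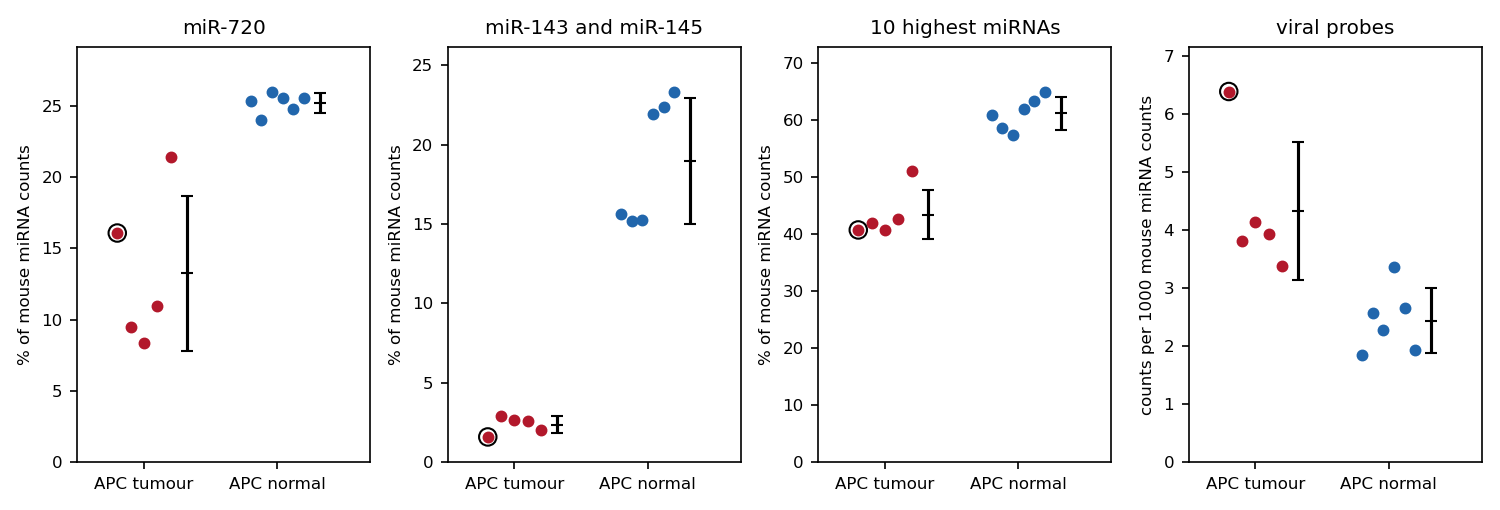
Shares of mouse miRNA counts taken by miR-720, by miR-143 with miR-145 and by the 10 highest miRNAs over all 11 libraries (%), and viral probe counts per 1000 mouse miRNA counts, one point per library, with mean and SD beside each group; the ringed point is tumour 1. All 5 tumours lie below all 6 normal libraries in the first 3 panels, and the viral measure is highest in tumour 1. The 10 highest miRNAs include miR-720, miR-143 and miR-145.

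Across the 563 miRNAs tested with edgeR's quasi-likelihood test, 52 were higher in APC tumours (9.24%) and 71 lower (12.6%) at a Benjamini-Hochberg adjusted p under 0.05, 21.8% in all. Fitted changes of more than 2-fold made up 18 of the rises and 30 of the falls. In 24 of the 52 rises every tumour lay above every normal library, and in 48 of the 71 falls every tumour lay below. Over all tested miRNAs such separation occurred upward in 4.26% and downward in 8.7%. Calls depended on level: of the 211 tested miRNAs whose median exceeded background in at least 1 group, 46 were higher (21.8%) and 55 lower (26.1%). Of 292 miRNAs at background in all 11 libraries, 5 were called higher and 7 lower. A further 17 exceeded background in tumours only, with 10 called higher, and 63 in normal mucosa only, with 26 called lower. The count of calls in each direction therefore rests partly on miRNAs for which 1 side has no measured level. A miRNA at background in all libraries of a group is given below as "at least N-fold", from the mean log2 level of the brighter group against the dim group's values raised to each library's background.

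**Figure D2:**
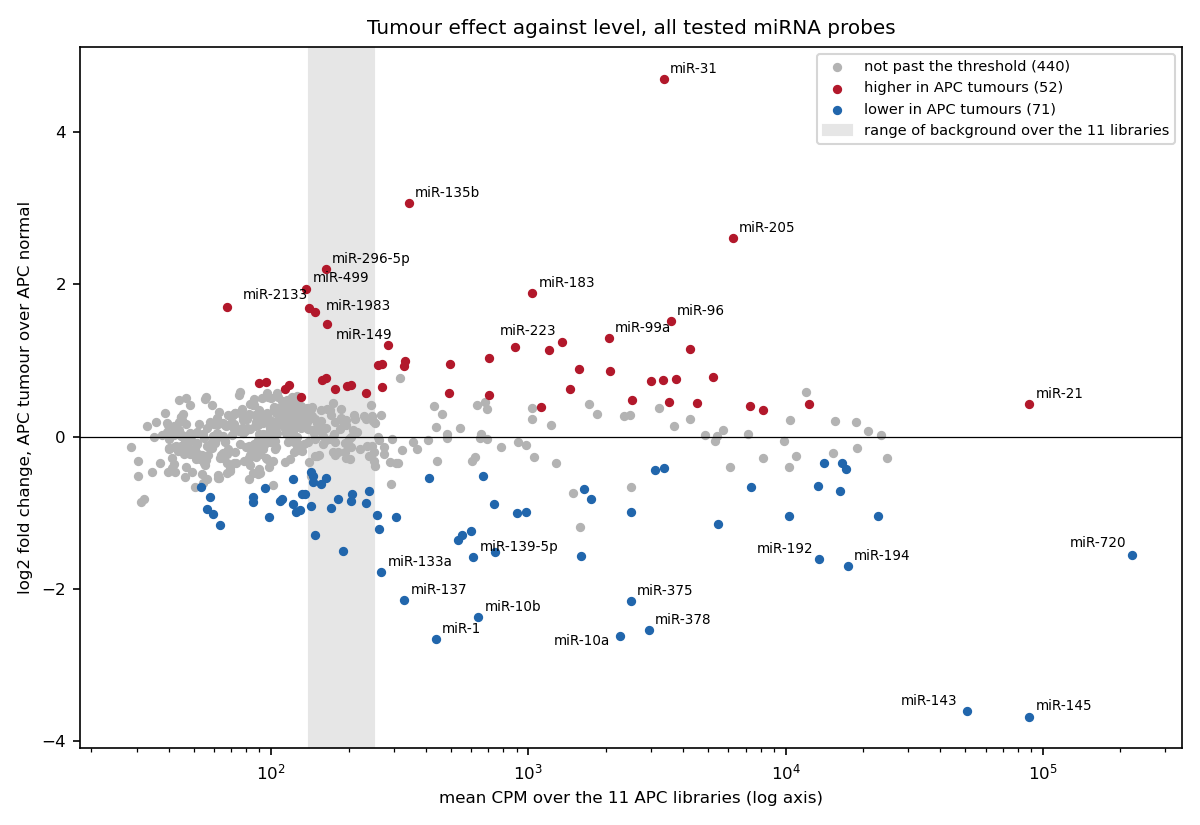
Log2 fold change of APC tumours (n = 5) over APC normal mucosa (n = 6) against mean CPM over the 11 libraries (log axis) for the 563 tested miRNA probes, coloured by call, with the background range shaded. miR-31 is the highest point, and miR-145 and miR-143 are the lowest points and stand at a high level.

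Both members of the miR-135 family rose in APC tumours. miR-135b measured 561, 675, 622, 616 and 812 CPM in tumours 1 to 5, against 52.3 to 115 CPM with a median of 81.2 in normal mucosa. All 5 tumours were above background and all 6 normal libraries at or below it, so its rise of 3.07 ± 0.20 on the log2 scale (SE, adjusted p = 2.83e-15) has a bound of at least 3.96-fold. miR-135a, encoded at 2 loci on chromosomes 9 and 10, measured 423, 659.5, 365, 337 and 266 CPM in tumours 1 to 5, against 137 to 215 CPM with a median of 182 in normal mucosa, where 4 of 6 libraries exceeded background. Its rise was 1.20 ± 0.20 (adjusted p = 1.06e-05), and although the groups do not overlap, tumour 5 had the lowest miR-135a and the highest miR-135b of the 5. Summed over the pair, the level was 953 to 1335 CPM in tumours against 198 to 299 CPM in normal mucosa. Both stayed scarce within the panel: miR-135b held rank 119 and miR-135a rank 131 of 566 by mean level over the 11 libraries.

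miR-31, a miRNA often raised in colorectal cancer and in wounded or inflamed epithelium, had the largest fitted rise. It measured 2264, 9148, 9300.0, 8960.4 and 5743 CPM in tumours 1 to 5, against 232 to 322 CPM with a median of 263 in normal mucosa. Tumour 1 was the lowest of the 5 and still above every normal library. The rise was 4.70 ± 0.29 on the log2 scale (adjusted p = 5.45e-13), and 4.93 ± 0.19 without tumour 1. miR-205, a miRNA of squamous and basal epithelia that represses the EMT factors Zeb1 and Zeb2, measured 6775, 15103, 12407, 15059 and 7933 CPM in tumours 1 to 5, against 954 to 2693 CPM with a median of 2116 in normal mucosa. Its levels in tumours 1 and 5 were the lowest of the 5, the groups did not overlap, and the rise was 2.61 ± 0.32 (adjusted p = 1.24e-06). miR-203, the other squamous miRNA examined, reached 828, 3194, 3578, 3344 and 2775 CPM in tumours 1 to 5 against 961 to 2219 CPM with a median of 1420.5 in normal mucosa, a rise of 0.86 ± 0.24 (adjusted p = 0.00723). For miR-203, tumour 1 lay below all 6 normal libraries and tumours 2 to 5 above them, and without tumour 1 the rise was 1.09 ± 0.15. In edgeR's test over the 11 APC libraries alone, the miR-203 rise did not pass (0.82, adjusted p = 0.0745).

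The miR-183 cluster, best known from sensory organs and raised in many carcinomas, rose with all 3 members, which are neighbours on chromosome 6. miR-183 measured 1422, 2161, 1882, 1663 and 1447 CPM in tumours 1 to 5, against 396 to 589 CPM with a median of 459 in normal mucosa, a rise of 1.88 ± 0.17 (adjusted p = 2.60e-11). miR-96 had 3304, 7022, 5965, 5785 and 5596 CPM in tumours 1 to 5, against 1735 to 2307 CPM with a median of 1904 in normal mucosa (1.52 ± 0.15). The groups overlapped for neither. miR-182 was far lower than its neighbours, with 161, 650.1, 494, 522 and 443 CPM in tumours 1 to 5 and 162 to 304 CPM with a median of 236 in normal mucosa. Tumour 1 lay below background for miR-182 and below every normal library, and the rise was 0.99 ± 0.23 with it and 1.20 ± 0.18 without it.

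Other rises were smaller or nearer to background. miR-99a, whose seed ACCCGUA it shares with miR-100, rose by 1.30 ± 0.17 (3036 ± 954 CPM in tumours, 1236 ± 259 CPM in normal mucosa, adjusted p = 1.35e-07), with no overlap. miR-223, known from neutrophils and other myeloid cells, measured 2145, 1683, 1473, 1619.7 and 2931 CPM in tumours 1 to 5, against 552 to 1359.9 CPM with a median of 763 in normal mucosa. Every tumour exceeded every normal library for miR-223, and the rise was 1.25 ± 0.25 (adjusted p = 2.57e-04). miR-149 and miR-1983 were at background in all 6 normal libraries and above it in 4 of 5 tumours, a rise of at least 1.505-fold and at least 1.42-fold. The probes for miR-296-5p, for miR-2133 and for miR-499 exceeded background in 3 of 5 tumours and in no normal library, with bounds of at least 1.34-, 1.06- and 1.07-fold. For miR-296-5p the values were 55.2, 327, 417, 461 and 152 CPM in tumours 1 to 5, against 51.5 to 74.4 CPM with a median of 61.9 in normal mucosa, so 3 tumours were above background and tumours 1 and 5 below it. miR-21 was second to miR-720 by mean level in tumours, but exceeded it in tumours 2, 3 and 4. It measured 58946, 117166, 105763, 111168 and 122199 CPM in tumours 1 to 5, against 60201 to 100223 CPM with a median of 71677 in normal mucosa. Tumour 1 lay below all 6 normal libraries and tumours 2 to 5 above them. The difference of 0.43 ± 0.15 (adjusted p = 0.0409) kept its call in 9 of 25 other settings, the one without tumour 1 among them. Leaving out single libraries gave 0.36 to 0.57.

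The largest falls were of miRNAs of smooth muscle and stroma. miR-145, which promotes the contractile state of smooth muscle, measured 6356, 14132, 12492, 13543 and 12987 CPM in tumours 1 to 5, against 106285 to 218335 CPM with a median of 144260.1 in normal mucosa. Its partner miR-143 measured 3581, 9946, 7507, 7701 and 7055 CPM in tumours 1 to 5, against 59616 to 120320.1 CPM with a median of 86807 in normal mucosa. The highest tumour lay below the lowest normal library for both, and miR-145 fell by 3.68 ± 0.25 and miR-143 fell by 3.61 ± 0.28 on the log2 scale (adjusted p = 3.98e-12 and 2.32e-10), 12.8- and 12.2-fold. The muscle miRNAs miR-1 and miR-133a were above background in all 6 normal libraries (451 to 971 CPM and 318 to 473 CPM) and at background in all 5 tumours, a fall of at least 3.52- and 2.00-fold. In whole tissue, fewer cells of a type and less of its RNA per cell cannot be told apart. miR-137, known from neurons, likewise fell at least 2.58-fold to background in all 5 tumours.

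**Figure D3:**
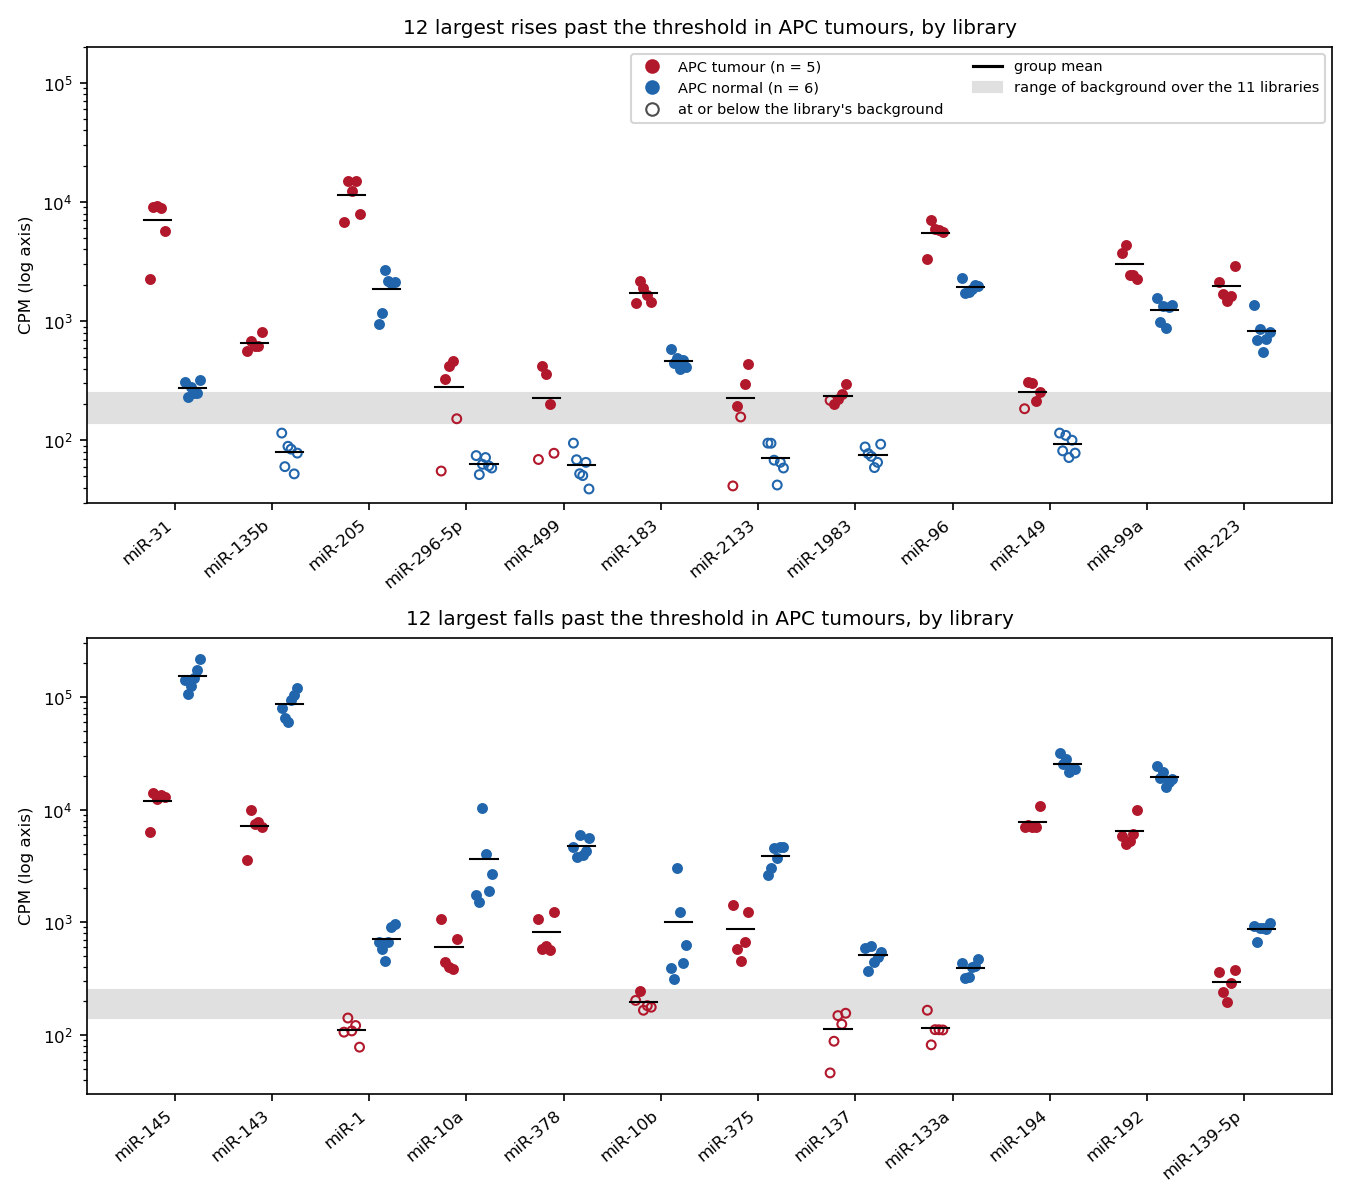
CPM (log axis) of the 12 largest rises and the 12 largest falls past the threshold among miRNAs with a median above background in at least 1 group, one point per library, APC tumours (n = 5) left of APC normal mucosa (n = 6), with group means and the background range shaded; open points are at or below their own library's background. For miR-31 all 5 tumours lie above all 6 normal libraries, while miR-2133, miR-499 and miR-296-5p have 2 tumours at or below background.

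miR-192 and miR-194, known from differentiated intestinal epithelium, also fell. miR-194 measured 7074, 7343, 6936, 6937 and 10847 CPM in tumours 1 to 5, against 21474 to 31522 CPM with a median of 24317 in normal mucosa, and miR-192, encoded beside a copy of miR-194 on chromosome 19, measured 5813, 4912, 5271, 6081 and 9949.6 CPM in tumours against 15862 to 24357 CPM with a median of 18887 in normal mucosa. Tumour 5 was the highest tumour for both and still below every normal library. The falls were -1.70 ± 0.15 and -1.61 ± 0.16 (adjusted p = 3.42e-12 and 2.35e-10). miR-375, a miRNA of hormone-secreting cells in gut and pancreas, measured 1418, 584, 457, 667 and 1229.9 CPM in tumours 1 to 5, against 2632 to 4661 CPM with a median of 4115 in normal mucosa, and its fall was -2.16 ± 0.25 (adjusted p = 1.07e-07). Tumours 1 and 5 were the highest tumours for miR-375 and for miR-378, and all 5 lay below all normal libraries. Outside the epithelial and endocrine lists, miR-378, encoded within the gene of the mitochondrial coactivator Ppargc1b, had 1072, 581, 617, 569 and 1229.9 CPM in tumours 1 to 5, against 3771 to 5921 CPM with a median of 4516 in normal mucosa (a log2 fold change of -2.54 ± 0.18). miR-139-5p, whose hairpin lies in Pde2a, measured 293 ± 77.4 CPM in tumours and 873 ± 103 CPM in normal mucosa, a change of -1.58 ± 0.17, and the opposite arm, miR-139-3p, was called lower (-0.79 ± 0.24) although at background in every library.

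miR-10a and miR-10b share the seed ACCCUGU and are encoded in the Hoxb and Hoxd clusters of body-patterning genes. miR-10a measured 1072, 439.7, 399.8, 387 and 705 CPM in tumours 1 to 5, against 1503 to 10239 CPM with a median of 2289 in normal mucosa. miR-10b measured 203, 245, 166, 182 and 176 CPM in tumours 1 to 5, against 314 to 3044 CPM with a median of 533 in normal mucosa. All tumours lay below all normal libraries for both, but normal 3 was more than 2-fold above any other normal library for each of them, and miR-10b exceeded background in 1 of 5 tumours. The log2 changes were -2.62 ± 0.50 and -2.37 ± 0.48 (adjusted p = 3.80e-04 and 6.52e-04). Without normal 3 they were -1.99 for miR-10a and -1.64 for miR-10b (adjusted p = 4.85e-04 and 1.42e-04). miR-196b, encoded in a Hox cluster, had 3318, 3919, 4654, 5644 and 6604 CPM in tumours 1 to 5 and 671 to 4407 CPM with a median of 2834 in normal mucosa, where normal 3 held the lowest value. Its rise of 0.76 ± 0.28 lies near the threshold (adjusted p = 0.0497) and kept its call in 15 of 25 other settings. miR-196a, which shares its seed, moved the other way, by -1.005 ± 0.17 (adjusted p = 1.44e-05). miR-100, related in sequence to miR-10a and with the seed of miR-99a, had a log2 change of 0.36 ± 0.16 (adjusted p = 0.104).

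Families that share a seed moved together only in part. The miR-30 members miR-30a, miR-30e and miR-30c fell by 0.99 ± 0.14, 0.98 ± 0.17 and 0.52 ± 0.14 on the log2 scale, whereas miR-30b measured 3378, 16186, 18414, 20668 and 14894 CPM in tumours 1 to 5 against 7518 to 12862 CPM with a median of 9544 in normal mucosa. For miR-30b tumour 1 lay below every normal library and tumours 2 to 5 above, and the difference was 0.59 ± 0.26 (adjusted p = 0.122), or 0.84 ± 0.14 without tumour 1. In the miR-29 family, known for targeting collagen messages, miR-29c and miR-29b changed by -1.15 ± 0.14 and -0.71 ± 0.13, with no overlap between groups, while miR-29a overlapped (-0.22 ± 0.14, adjusted p = 0.28). Of the 4 probes with the seed AAAGUGC of the miR-17 family, 3 rose: the probe for miR-106a and miR-17 by 0.79 ± 0.14, that for miR-20a and miR-20b by 0.75 ± 0.15 and miR-93 by 0.63 ± 0.13. miR-106b changed by 0.42 ± 0.17 (adjusted p = 0.0628). The probe for miR-106a and miR-17 was even over the tumours (6727 to 6909.7 CPM), tumour 1 included, and above all normal libraries (2897 to 5663 CPM). The 10 probes with the let-7 seed had 2 rises and 1 fall, and the 6 of the miR-15/16 family had neither. Among 65 hairpins with both arms on the panel, 2 had both arms called: both arms of miR-125a rose, miR-125a-5p by 1.15 ± 0.14 and miR-125a-3p by 0.95 ± 0.20, and both arms of miR-139 fell.

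Of the miRNA genes, 70 groups held more than 1 probe within 10 kb of its neighbour. In 13 of these at least 2 probes were called, and within each of the 13 all calls ran in the same direction: 8 groups lower and 5 higher. These groups are not all independent. The chromosome X group of miR-106a and miR-20b took its calls from combined probes that also count miR-17 and miR-20a of the chromosome 14 group. Some groups are the 2 arms of 1 hairpin, as for miR-139 on chromosome 7. On chromosome 17 let-7e, miR-125a-5p and miR-125a-3p rose together. On chromosome 5 miR-25 (0.73 ± 0.13) and miR-93 rose and their neighbour miR-106b did not pass. On chromosome 14 miR-19a rose, while miR-18a, miR-19b and miR-92a did not pass, miR-92a at -0.47 ± 0.22. The combined probes that include miR-17 and miR-20a of this group rose too, but their rises cannot be assigned to chromosome 14 or X. On chromosome 16 miR-99a rose and let-7c, which has further copies elsewhere, was at 0.03 ± 0.23. The miR-200a and miR-200b genes of chromosome 4 fell by 0.64 ± 0.16 and 0.34 ± 0.13 while miR-429 beside them was at 0.08 ± 0.13. The fall of miR-200b (adjusted p = 0.0492) kept its call in 7 of 25 other settings and turned to 0.34 under scaling by the library total. A probe counts all genomic copies of its miRNA, and the members of a group share one tissue and one scaling, so these are descriptions of the groups.

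**Figure D4:**
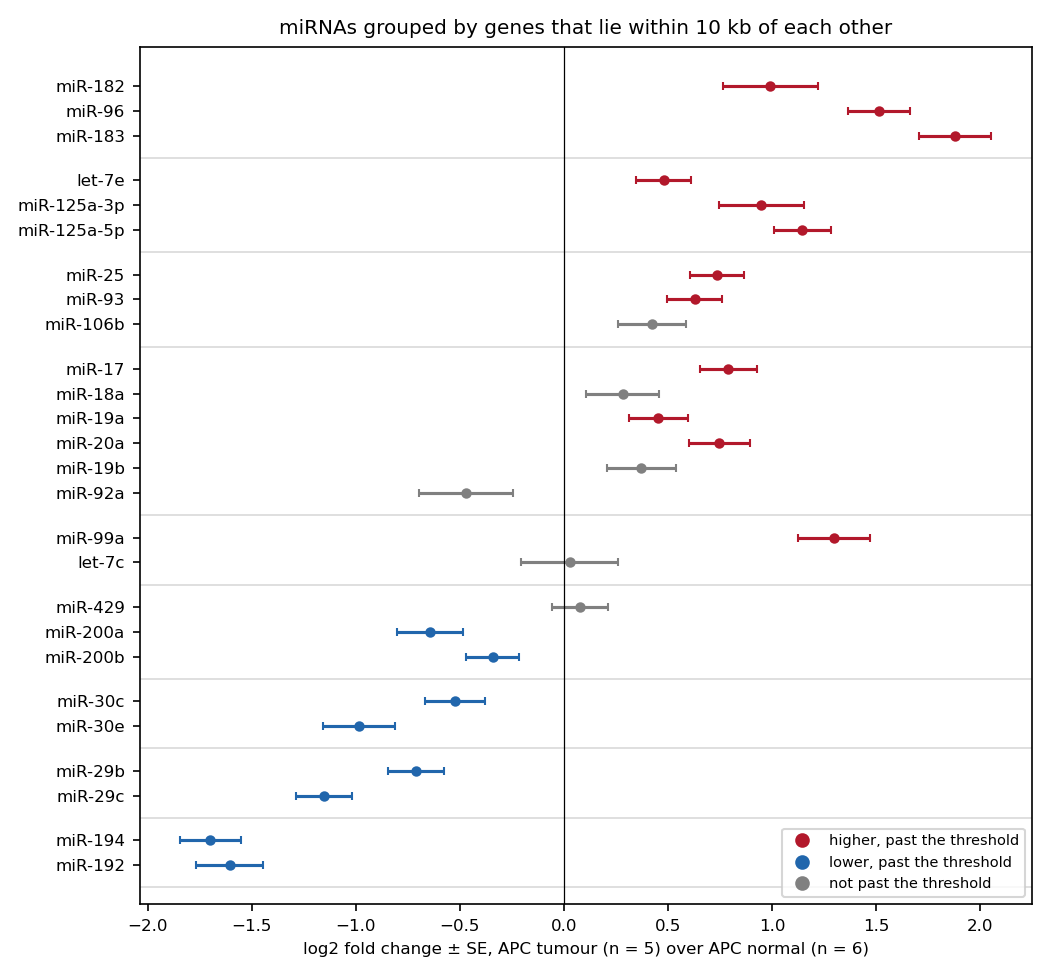
Log2 fold change ± SE of APC tumours (n = 5) over APC normal mucosa (n = 6) for miRNAs of 9 groups of genes within 10 kb of each other, coloured by call. The miR-183 group lies right of 0, the miR-192 group left of it, and miR-99a with let-7c shows a rise beside a miRNA not past the threshold.

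The lists of miRNAs with a known role were read by counts and medians beside the median of 0.04 over all tested miRNAs, of which 9.24% were higher and 12.6% lower. Of 24 miRNAs reported raised in colorectal tumours, 16 were higher, 1 lower (miR-503, at background in every library) and 7 not past the threshold, with a median of 0.74. Of 17 reported lowered, 14 were lower and 3 (miR-133b, miR-195 and miR-497) not past it, with a median of -1.70. miR-497 was at 0.41 ± 0.20, the direction opposite to that list. The Dlk1-Dio3 imprinted cluster, expressed mainly in the placenta and nervous system, had 16 of 53 lower and none higher, a median of -0.12, and 34 at background in both groups. Its member miR-127 fell at least 1.36-fold, to background in every tumour, and miR-136 measured 285, 248, 337, 317 and 357 CPM in tumours 1 to 5 against 588 to 991 CPM with a median of 747 in normal mucosa, a change of -1.29 ± 0.17. The 21 probes for tRNA- or rRNA-like sequences gave 5 higher and 5 lower, with miR-720 at -1.55 ± 0.30 and the miR-1937a and miR-1937b probe at -1.04 ± 0.31 among the lower. The 9 probes of the miR-290 and miR-302 pluripotency clusters were all at background in every library. Of them miR-290-5p was called (0.71 ± 0.24), with its call kept in 15 of the 23 other settings that tested it.

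Marker lists for cell types are given beside the same overall shares of 9.24% higher and 12.6% lower. The summed level of 9 muscle markers was 10779 to 25212 CPM in tumours and 172385 to 340554 CPM in normal mucosa, nearly all of it miR-143 and miR-145, with 4 lower, 1 higher (miR-499) and 4 not past the threshold. The 7 intestinal epithelium markers summed to 64878 to 82987 CPM in tumours and 93763 to 130332 CPM in normal mucosa. Of them, 4 fell and 1 rose: miR-200c was higher by 0.35 ± 0.13 (adjusted p = 0.041), a call kept in 12 of 25 other settings, and miR-141 and miR-429 were not past the threshold. Among fibroblast and mesenchyme markers 2 of 7 rose, miR-99a and miR-199a-3p (0.44 ± 0.13), and miR-152 fell (-0.68 ± 0.15), with sums of 27657 to 43119 CPM in tumours and 22992 to 38018 CPM in normal mucosa. Of 8 leukocyte markers miR-223 rose, miR-142-5p fell (-0.88 ± 0.14) and 6 did not pass, counts near the overall shares, with sums of 19023 to 25987 CPM in tumours and 15827 to 30303 CPM in normal mucosa. Of 2 endothelial probes miR-126-3p rose (0.43 ± 0.12), and 1 of 3 erythrocyte markers fell, miR-486, which exceeded background in 2 normal libraries and in no tumour. Of 7 neural markers miR-137, miR-218 and miR-138 fell, each to background in all 5 tumours, and miR-138 exceeded background in 1 of 6 normal libraries. The part of changed cell composition in the falls of miR-143, miR-145, miR-192 and miR-194 was not tested.

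Of the 123 calls, 36 belonged to none of the lists. miR-365 measured 773 ± 269 CPM in tumours and 2300.1 ± 523 CPM in normal mucosa (-1.57 ± 0.19), and miR-193 fell at least 1.82-fold to background in all 5 tumours. miR-741 measured 347 ± 104 CPM in tumours and 810.3 ± 59.9 CPM in normal mucosa (-1.23 ± 0.20). miR-338-3p, whose hairpin lies within the span of Aatk, fell by 1.03 ± 0.21, and miR-26b by 0.82 ± 0.16. Among rises, miR-140, a miRNA of cartilage and mesenchyme, measured 1719 ± 246 CPM in tumours and 781 ± 117 CPM in normal mucosa (1.14 ± 0.17, no overlap). miR-99b, of the miR-125a cluster, rose by 0.89 ± 0.17 and miR-708 by 0.96 ± 0.19.

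Tumour 1 shaped the spread of the tumour group. Over the 211 miRNAs above background it was the lowest of the 5 tumours for 113, more than 2-fold below the mean of the others for 50 and more than 2-fold above for 2, miR-10a and miR-375. The median SD of log2 level was 0.31 in tumours, 0.19 in tumours 2 to 5 and 0.28 in normal mucosa. Without tumour 1 the comparison gave 63 higher and 69 lower, of which 48 and 67 were calls with it. Calls gained included miR-30b, miR-497 (0.61 ± 0.15), miR-221 (0.99 ± 0.25) and miR-126-5p (0.37 ± 0.13), and calls lost included miR-103 and miR-200c. miR-145 and miR-143 then changed by -3.52 ± 0.24 and -3.44 ± 0.27, and miR-205 by 2.75 ± 0.33. Depth, background and the tumour itself cannot be told apart in this library.

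The tumour effect differed between the models for 38 of 563 miRNAs (6.75%; APC minus AOM-DSS, adjusted p under 0.05), and for 29 of them the APC change was also called. These 29, of which the APC change was larger in size in all, comprised 18 falls and 11 rises. They were selected by their APC call, which favours a larger APC change. Of the other 9, not called in APC tumours, 8 changed more in AOM-DSS tumours, which their selection by a missing APC call likewise favours. miR-9, best known from neurons, changed by 0.27 in APC and -1.46 in AOM-DSS tumours, miR-18a by 0.28 in APC and 1.13 in AOM-DSS tumours, and miR-125b-5p by 0.19 in APC and -0.81 in AOM-DSS tumours. miR-31 rose by 1.43 ± 0.36 more on the log2 scale in the APC model, with 4.70 in APC and 3.27 in AOM-DSS tumours, and miR-135a by 1.21 ± 0.28 more, with a change of -0.01 ± 0.20 in AOM-DSS tumours. miR-192 and miR-194 fell more in APC tumours by 1.33 ± 0.21 and 1.33 ± 0.19, where AOM-DSS tumours changed by -0.28 ± 0.14 and -0.37 ± 0.13. miR-375 and miR-378 likewise differed by -1.63 ± 0.33 and -1.49 ± 0.23. AOM-DSS normal 7 was shallow, with 47235 mouse miRNA counts against 258878 to 329346 in the other AOM-DSS normal libraries. The effect of leaving it out was not tested. All APC libraries ran on cartridge 1 and all AOM-DSS libraries on cartridges 2 and 3, so model and cartridge cannot be told apart. Within AOM-DSS, all 7 normal libraries and tumours 1 and 2 ran on cartridge 2, and tumours 3 to 6 on cartridge 3. Cartridge is thus partly confounded with tissue in the AOM-DSS effect. With the 9 AOM-DSS libraries of cartridge 2 alone 17 miRNAs differed, and without APC tumour 1 57 did. The cartridge 2 count rests on AOM-DSS tumours 1 and 2 only, so fewer tumours and the cartridge cannot be told apart in it.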

How the data were processed

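The NanoString nCounter system measured mature miRNAs in RNA of mouse colon, and in this system probes are counted one molecule at a time without amplification. Raw counts per probe were deposited by the authors, per the file headers, for 24 libraries with 566 mouse miRNA, 33 viral miRNA and 4 mRNA probes. The authors also deposited a value table holding a scaled signal, which is the raw count times a factor per sample. The basis of that factor is not given in the sources used here. The headers of the 6 APC normal columns carry the number in the sample title. Other raw columns name a group only, and their library numbers, used as names, come from matching them to the scaled values, in which, with counts of 0 set to 1, all 14376 values agreed within a relative tolerance of 1e-06. Columns of other series numbered 0. Per the labels' protocols the RNA was prepared by a core facility after NanoString's procedure.

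Mouse miRNA counts were tested with edgeR 4.0.16 under R 4.3.3. The filter filterByExpr, with min.count at 10 and min.total.count at 15, left 563 of 566 miRNAs, TMM scaled the libraries, and a robust quasi-likelihood model was fitted over the 4 groups of 24 libraries, with the contrast of APC tumours over APC normal mucosa. Positive log2 fold changes mean higher in tumours. The standard error beside each is its size over the root of the test's F value. Adjusted p-values follow Benjamini and Hochberg over all tested miRNAs, with a threshold of 0.05. Library measures were compared with exact permutation tests. Levels of a probe are counts per library size (CPM). Counts were simulated for this comparison over 562 miRNAs, of which 200 were changed. In the simulated counts, 95% of 2-fold and 100% of 4-fold changes were recovered and 2.01% of calls were false. These rates hold for the simulated counts only. They were not worked out separately for miRNAs at background, and they do not measure the error of the reported calls.

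Named miRNAs follow a rule: miR-135a and miR-135b, the 12 strongest called changes in each direction with a median above background, the 10 highest miRNAs, up to 4 members of each list with the smallest p, and the 3 largest differences each way between models. miR-9, miR-18a, miR-139-3p, miR-100, miR-106b, miR-92a and the miRNAs in none of the lists were named after their values were seen. The members, the lists of miRNAs and the tests were chosen with earlier results of these data known. Some probes count several near-identical miRNAs together, and probes of a family may bind each other's targets. Probe names without an arm were matched to a mature strand by hand from miRBase naming. Every pair of libraries within a group differed by more than sampling noise (lowest chi-square per degree of freedom 3.85 in tumours and 3.30 in normal mucosa). The alternatives were other scalings, filters, tests, DESeq2 1.42.0, and limma 3.58.1 on voom weights or on log2 of the authors' scaled signal plus 1. Further ones were the 11 APC libraries alone, a replicate block, and leaving out each APC library.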

Additional observations from a re-analysis of the deposited data

Results flagged for a closer look

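Of 220 groups of values examined, 29 held a library whose gap to its nearest neighbour was large against the range of its group by Dixon's criterion, which chance alone meets in about 1 of 20 groups. Tumour 1 was that library in 19 of them. It was the lowest tumour, with the range of tumours 2 to 5 after it, for miR-145 (6356 CPM, against 12492 to 14132), miR-21 (58946, against 105763 to 122199), let-7a (10746, against 23328 to 27086), let-7c (7773, against 23717 to 29612), miR-30b (3378, against 14894 to 20668) and miR-203 (828, against 2775 to 3578). The same held for miR-103 (1482 CPM), miR-126-5p (658), miR-34a (525), miR-195 (364), miR-30e (304), miR-497 (179), miR-182 (161), miR-146b (129), miR-144 (96.6), miR-222 (64.4) and miR-486 (36.8). Tumour 1 was the highest tumour for viral counts per 1000 mouse miRNA counts (6.39, against 3.37 to 4.14) and for the Gapdh mRNA probe (11.26 log2 CPM, against 10.38 to 10.56).

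Tumour 5 stood apart with the highest miR-194 (10847 CPM), the highest share of the 10 highest miRNAs (51.1%) and the lowest miR-181c (205 CPM). Tumour 2 had the highest miR-23a (6447 CPM), miR-302b (119 CPM, at background) and miR-342-3p (1052 CPM) of the tumours. Among normal libraries, normal 3 had the lowest miR-196b (671 CPM) and miR-214 (105 CPM), normal 2 the lowest miR-139-5p (674 CPM) and normal 6 the lowest miR-34b-5p (34.2 CPM, at background).

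The tumour effect in the APC model minus that in the AOM-DSS model passed the test of the difference for 20 of the named miRNAs, with the model not separable from the cartridge. On the log2 scale the differences were 1.43 for miR-31, 1.21 for miR-135a, 1.00 for miR-135b, 0.81 for miR-99a, 0.71 for miR-199a-3p, 0.66 for let-7e and 0.63 for miR-126-3p. Negative differences were -1.63 for miR-375, -1.49 for miR-378, -1.41 for miR-145, -1.40 for miR-2134, -1.36 for miR-143, -1.33 for miR-194, miR-192 and miR-720, -1.04 for miR-486, -0.88 for miR-1, -0.83 for miR-196a, -0.81 for miR-139-5p and -0.62 for miR-29c.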

How the results depend on the processing

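Under 25 alternatives of the APC comparison, 40 of 102 named miRNAs kept direction and call in all that tested them, and 22 changed sign in at least 1. The reported counts were 52 higher and 71 lower. Scaling by the library total alone gave 353 and 25, the 4 mRNA probes 30 and 44, and the authors' scaled values 86 and 42. A fit to the 11 APC libraries alone gave 39 and 63, of which 39 and 61 were among the reported calls. Higher calls made up 42.3% of calls as reported, 93.4% by library total, 52.4% when scaled to the 100 highest miRNAs, 55.9% with miRNAs above background in 5 of 11 libraries and 67.2% in the authors' values. Leaving out single libraries gave 43 to 63 higher, 63 to 75 lower and 30 to 57 that differed between models, with 57 without tumour 1. For the difference between models, the library total gave 61 and AOM-DSS libraries of cartridge 2 alone 17. The numbers in the titles are not stated to pair tissues, and same-numbered samples did not deviate together (r of -0.318 to -0.017), so the replicate block appears only here: with it, 41 were higher and 59 lower, of which 41 and 58 were among the reported calls. Of calls named in the report, the least stable were kept in 7 (miR-200b), 9 (miR-21), 12 (miR-200c and let-7g), 15 (miR-196b) and 19 (miR-103) of the 25 alternatives. Those of miR-290-5p, miR-138 and miR-486 were kept in 15, 18 and 19 of the 23 alternatives that tested them. The call of miR-199a-3p was lost without tumour 2, that of miR-138 without normal 6, and that of the miR-1937a and miR-1937b probe without tumour 2 or tumour 3. Calls lost with the 11 APC libraries alone included those of miR-203, miR-126-3p, miR-199a-3p and let-7e. That of miR-203 was also lost with the replicate block. miR-21 kept its direction in all (adjusted p up to 0.215).

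Signs turned by library total alone for let-7a (0.37), miR-16 (0.53), miR-200a (0.00142), miR-200b (0.34), miR-141 (0.23), let-7g (0.33), let-7d (0.43), miR-449b (0.36), miR-29a (0.43), miR-30c (0.15), miR-195 (0.27), miR-23a (0.0264), miR-23b (0.60), miR-222 (0.52), miR-103 (0.19), miR-210 (0.32), miR-33 (0.41), miR-302a (0.10), miR-7b (0.47) and miR-451 (0.37), all log2 changes. In the authors' values they turned for miR-16 (0.11), miR-29a (0.0199), miR-23b (0.11) and miR-7b (0.0715). let-7c turned with no filter (-0.0465), limma-voom (-0.0783) and APC libraries alone (-0.0067), and ranged from -0.0643 to 0.25 without single libraries. miR-23b turned when scaled to the 100 highest miRNAs (0.0199), to the mRNA probes (0.0462) and above background (0.0558), and ranged from -0.22 to 0.10. miR-222 turned with the mRNA probes (0.0251) and ranged from -0.28 to 0.0931, and miR-15b from -0.019 to 0.15. The Gapdh difference of 0.40 log2 CPM ranged from 0.24 to 0.47 (adjusted exact permutation p = 0.0381 without normal 1). Apart from changes that follow from fewer libraries or miRNAs, the cause was not tested. Levels near background limit miRNAs under about 250.6 CPM. Calls were not checked against base composition, and 57.3% of the 211 miRNAs above background had an assigned sequence.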
